A study of Mus musculus with 4 samples.

Results

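The genes analysed here encode the proteasome, the protease complex that degrades ubiquitin-tagged proteins. Members were the transcript clusters of the array whose only gene symbol was Psma, Psmb, Psmc or Psmd followed by a number, or Psme1 to Psme4, with pseudogene symbols left out. Of 30734 symbols with a transcript cluster of their own on the array, 41 met this rule, each with 1 cluster, and 38 of these passed the signal minimum of 100 in at least 2 arrays that left 10714 genes for testing. The 38 genes lie on 15 chromosomes. They were 35 constitutive members and the 3 immunoproteasome subunits Psmb8, Psmb9 and Psmb10, which were kept apart. Psmb5 and Psme2 share their clusters with other symbols and were not analysed here.

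RNA was taken from splenocytes of DBA/1 mice at 3 weeks of age, before any arthritis was induced. The dams had drunk water with 3 µg/ml of the plasticizer benzyl butyl phthalate (BBP) from before mating until the pups were weaned, or plain drinking water in the control groups. Offspring were pooled by sex and exposure and each pool was measured on 1 Clariom D array: 12 control females, 6 BBP females, 4 control males and 4 BBP males. The strain, which is prone to collagen-induced arthritis, was shared by all pools, and the labels do not give the litters. There was therefore no replicate within a sex, litter and exposure cannot be told apart, and every value below compares pools rather than animals.

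The proteasome core is a barrel of alpha and beta rings in which certain beta subunits cut peptide bonds. A regulatory cap, built of a base with an ATPase ring and a lid, receives ubiquitinated proteins, unfolds them and feeds them into the core. Lymphoid cells such as those of the spleen also make an immunoproteasome, in which interferon-inducible catalytic subunits take the place of the constitutive ones and favour peptides that fit MHC class I molecules.

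The signals of the proteasome genes were lower in the pools from BBP-exposed dams than in the control pools of the same sex, and more so in males. The median log2 ratio of BBP to control over the 38 genes was -0.38 in the female pair, with a range of -0.95 to 0.29, and -0.66 in the male pair, with a range of -1.40 to -0.20. Over all 10714 genes the medians were -0.09 and -0.15. Of the 38 genes, 36 had a negative log2 ratio in both pairs, against 51.5% of all genes, and 0 had a positive one in both, against 20.1%. In 35 members both BBP pools lay below both control pools, against 39.8% of all genes and 41.9% of the protein-coding ones, and the 3 members whose pools overlapped were Psmd3, Psme3 and Psme4. In 22 members the ratio lay below the lower quartile of all genes in both pairs, where 12.9% of all genes lay.

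With the settings used throughout, Psmb10 was the only member that passed the test of exposure over all 4 arrays. This test was limma with terms for exposure and sex, 1 residual degree of freedom and Benjamini-Hochberg adjustment over all genes at 0.05, and it called 1.18% of all genes lower and 1.43% higher. Psmb10 had an adjusted p of 0.0455, and the 35 constitutive members had adjusted p from 0.0558 to 0.88. At an unadjusted p under 0.05, limma gave 28 members lower, against 21.1% of all genes (18.1% of protein-coding genes), and 0 higher, against 6.02%. The count of members called depended on the settings. It was 6 with the median over all clusters with 1 symbol equalised, where 486 of all 10714 genes were called lower. Among protein-coding genes alone it was 21, where 766 of all 7671 were called lower. In most other settings it was 0, and in most of these no gene of the whole series was called lower either. The call on Psmb10 held in 4 of 16 alternative settings, with adjusted p from 0.00933 to 0.572. With any single pool omitted no gene of the 10714 passed, so these fits say nothing about single calls, and the limma log2 change of Psmb10 was then -1.41 to -0.94.

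By fold alone, 7 members were at least 1.5-fold lower in both pairs, against 4.43% of all genes and 3.45% of the protein-coding ones. These were Psmb10, Psmb7, Psmb2, Psma1, Psmb1, Psmb6 and Psmc1. None was at least 2-fold lower in both pairs, against 0.541% of all genes. In the male pair 25 members were at least 1.5-fold lower, against 13.3% of all genes and 12.4% of the protein-coding ones. In the female pair 8 members were, against 12.1% and 5.44%. Psmb10, Psma5, Psmd10 and Psmb3 were the 4 members at least 2-fold lower in the male pair, against 3.08% of all genes.

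**Figure D1:**
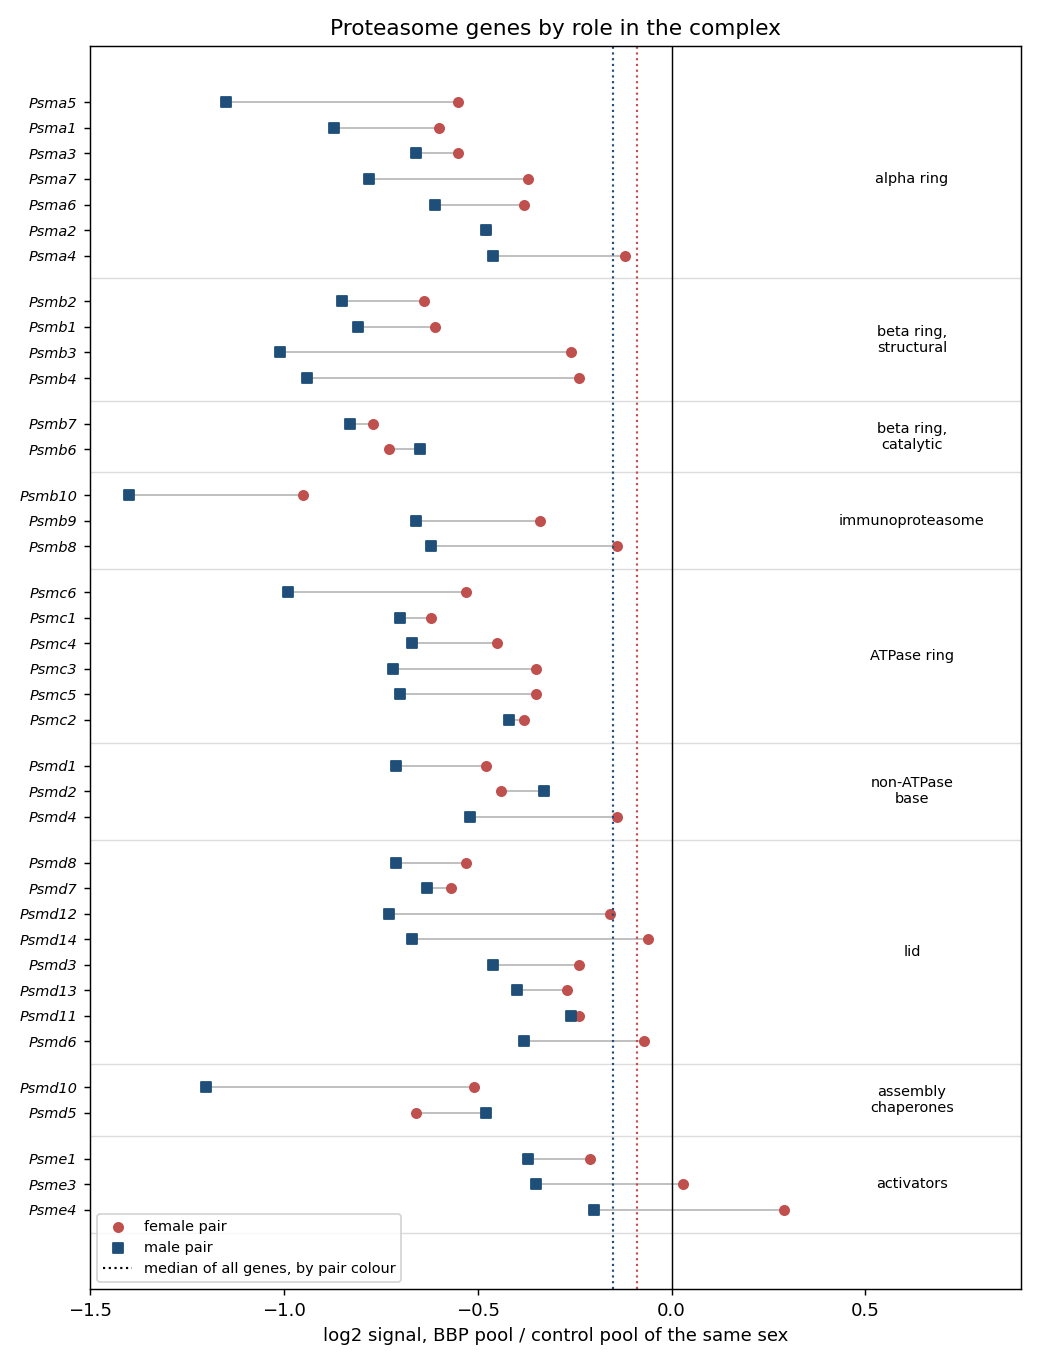
The log2 ratio of BBP to control signal (horizontal axis) is plotted for the 38 proteasome genes, grouped by role, with a circle for the female pair and a square for the male pair, and dotted lines at the medians of all genes (-0.09 and -0.15). Most squares lie to the left of their circles, and only the circles of Psme3 (0.03) and Psme4 (0.29) lie above 0.

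The immunoproteasome subunits were Psmb8, Psmb9 and Psmb10, which encode the beta5i, beta1i and beta2i proteases. Psmb10 had a signal of 1936 in control females, 1003 in BBP females, 2684 in control males and 1017 in BBP males. Both BBP pools lay far below both control pools and almost level with each other, while the control male pool was the highest. In 39.8% of all genes both BBP pools lay below both control pools. The control signal was 1.93 times the BBP signal in the female pair and 2.64 times in the male pair, and limma gave a log2 change of -1.17 (SE 0.17, adjusted p = 0.0455).

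Psmb9 had signals of 161 in control females, 127 in BBP females, 187 in control males and 119 in BBP males. It was near the signal minimum, and both BBP pools lay below both control pools, as in 39.8% of all genes. The log2 ratios were -0.34 and -0.66 in females and males (limma -0.50, SE 0.15, adjusted p = 0.123). Psmb8 showed the smallest female difference of the immunoproteasome subunits, with 856 in control females, 777 in BBP females, 977 in control males and 635 in BBP males. Its log2 ratio was -0.14 in females and -0.62 in males (limma -0.38, SE 0.16, adjusted p = 0.218). Psmb8 and Psmb9 both lie on chromosome 17 and Psmb10 lies on chromosome 8. The immunoproteasome medians, -0.34 in females and -0.66 in males, were close to the constitutive medians of -0.38 and -0.67. Whether the 2 sets differ was not tested.

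The constitutive catalytic subunits with a cluster of their own were Psmb6, the caspase-like beta1 protease, and Psmb7, the trypsin-like beta2 protease whose place Psmb10 takes in the immunoproteasome. Psmb7 had signals of 3863 in control females, 2264 in BBP females, 4357 in control males and 2450 in BBP males. The BBP pools again sat below both control pools, as in 39.8% of all genes. The ratio was nearly the same in each sex: -0.77 in females and -0.83 in males on the log2 scale. Psmb6 gave 291 in control females, 175 in BBP females, 267 in control males and 171 in BBP males. Unlike most members it was lower in control males than in control females, and its log2 ratio was -0.73 in females and -0.65 in males. limma gave adjusted p of 0.0611 for Psmb7 and 0.0605 for Psmb6.

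**Figure D2:**
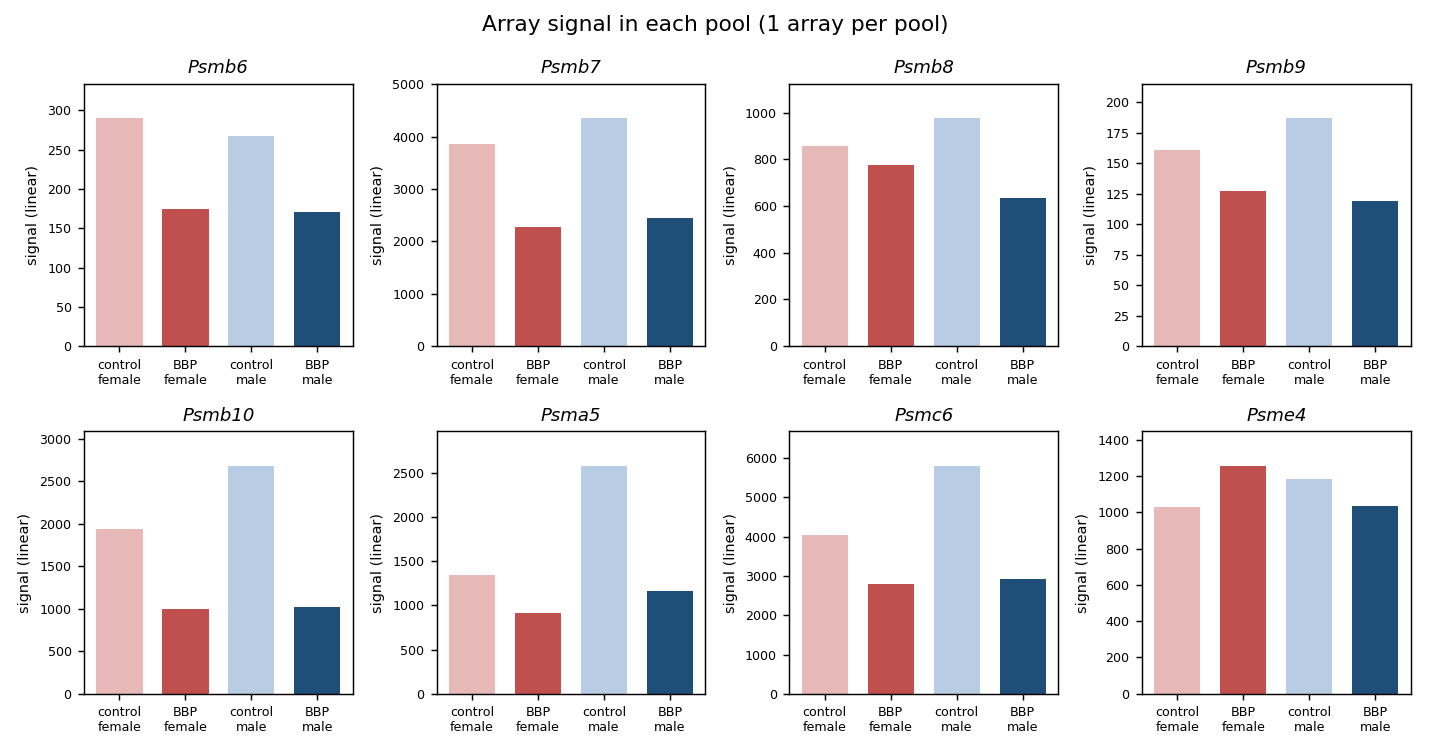
Bars give the linear array signal (vertical axis, a separate scale from 0 for each gene) in the 4 pools for 8 proteasome genes, with 1 array per bar and therefore no error bar. Psmb10 stood at 1003 and 1017 in the BBP pools against 1936 and 2684 in the control pools, whereas Psme4 was highest in the BBP female pool (1257).

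The structural beta subunits hold the inner rings together without cutting peptides themselves. All 4 had lower signals in the BBP pool of both pairs, against 51.5% of all genes, with medians of -0.44 (females) and -0.90 (males) on the log2 scale. Psmb1 and Psmb2, the beta6 and beta4 subunits, differed in both sexes, at -0.61 and -0.81 for Psmb1 and -0.64 and -0.85 for Psmb2. Psmb3 and Psmb4, the beta3 and beta7 subunits, differed mainly in males. Psmb3 had 402 in control females, 336 in BBP females, 598 in control males and 298 in BBP males, so that the log2 ratio was -0.26 in females and -1.01 in males. For Psmb4 the log2 ratios were -0.24 and -0.94. The adjusted p from limma was 0.0558 for Psmb2, 0.0777 for Psmb1, 0.142 for Psmb3 and 0.153 for Psmb4.

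The alpha ring forms the gated entry of the core. All 7 of its measured subunits were lower in both pairs, against 51.5% of all genes, with medians of -0.48 and -0.66. Psma5, the alpha5 subunit, had a signal of 1342 in control females, 917 in BBP females, 2581 in control males and 1160 in BBP males. The control male pool was the highest by far, and the BBP male pool still exceeded the BBP female pool. The log2 ratios of Psma5 were -0.55 and -1.15 (limma -0.85, SE 0.19, adjusted p = 0.0816). A processed copy, Psma5-ps, has a cluster of its own on the array with log2 ratios of -0.83 and -1.24. Cross-hybridisation between Psma5 and its copy was not tested, so the Psma5 value is uncertain.

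Psma1, the alpha6 subunit, had log2 ratios of -0.60 and -0.87 (adjusted p = 0.0641 by limma). Psma3, Psma6 and Psma7 had male ratios of -0.66, -0.61 and -0.78. Psma2 had the same ratio, -0.48, in both sexes. Psma4 had the smallest mean difference of the ring, at -0.12 in females and -0.46 in males.

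The 6 ATPases Psmc1 to Psmc6 form the ring that unfolds substrates. All were lower in both pairs, against 51.5% of all genes. All 6 were lower at an unadjusted limma p under 0.05, against 21.1% of all genes and 18.1% of the protein-coding ones. The median log2 ratios were -0.42 in females and -0.70 in males. Psmc6 had signals of 4033 in control females, 2799 in BBP females, 5812 in control males and 2927 in BBP males. The BBP pools were alike and the control pools were not, so that the ratio was -0.53 in females and -0.99 in males (limma -0.76, SE 0.18, adjusted p = 0.0863). Psmc1 had more even ratios, -0.62 and -0.70 (adjusted p = 0.071 by limma). Psmc2 had the smallest mean difference of the ring, at -0.38 and -0.42. Psmc3, Psmc4 and Psmc5 had male ratios between -0.72 and -0.67.

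The scaffold subunits of the base, Psmd1 and Psmd2, and the ubiquitin receptor Psmd4 had median ratios of -0.44 and -0.52. Psmd2 was one of the few members with a larger difference in females (-0.44) than in males (-0.33). Psmd1 gave -0.48 and -0.71, and Psmd4 gave -0.14 and -0.52.

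The lid had medians of -0.24 (females) and -0.54 (males) over 8 subunits. Of these, 4 were lower at an unadjusted limma p under 0.05, against 21.1% of all genes and 18.1% of the protein-coding ones. Psmd7 and Psmd8 had the largest mean ratios in the lid. They stood at -0.57 and -0.63 for Psmd7 and at -0.53 and -0.71 for Psmd8. Psmd14, the enzyme that removes ubiquitin from the arriving substrate, had 526 in control females, 503 in BBP females, 636 in control males and 400 in BBP males. Its female pair was nearly level (-0.06) and its male pair was not (-0.67), with an adjusted p of 0.26 by limma. Psmd12 had a like pattern, with -0.16 and -0.73. Psmd6 and Psmd11 had the smallest mean differences, with male ratios of -0.38 and -0.26. Psmd3 (-0.24 and -0.46) and Psmd13 (-0.27 and -0.40) lay between, and the pools of Psmd3 overlapped because the BBP male pool (259.4) was marginally above the control female pool (258.9).

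Chaperones that carry Psmd names help to assemble the base and leave before the proteasome is complete. Psmd10, also known as gankyrin, had signals of 511 in control females, 360.1 in BBP females, 730.3 in control males and 319 in BBP males. The BBP male pool was the lowest and the control male pool the highest, a 2.29-fold difference in males beside 1.42-fold in females (limma log2 -0.85, SE 0.19, adjusted p = 0.0858). Psmd5 gave -0.66 in females and -0.48 in males. Psmd9 was below the signal minimum in every pool (52.5 to 71.9).

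The activators, which open the core in place of the cap, were the group with the smallest differences. Psme4 had signals of 1027 in control females, 1257 in BBP females, 1182 in control males and 1032 in BBP males. Its BBP female pool was the highest and its groups overlapped, with log2 ratios of 0.29 and -0.20 (limma 0.05, SE 0.17, adjusted p = 0.88). Psme3 gave 9040.5 in control females, 9251 in BBP females, 10954 in control males and 8607 in BBP males. Its female pair was level (0.03), its male ratio was -0.35, and the adjusted p by limma was 0.592. Psme1, a subunit of the interferon-inducible PA28 activator, had ratios of -0.21 and -0.37 (adjusted p = 0.221 by limma).

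The tissue-restricted subunits were not above the minimum. Psma8, known from testis, had signals of 29.2 to 39.7, and Psmb11, the thymoproteasome subunit of cortical thymic epithelium, had 10.9 to 13.3. The medians of the array's negative control features lay between 51.1 and 64.1 in the 4 pools. Their 95th percentiles were 671.2 and 673.0 in the control female and male pools, but 904.2 and 847.2 in the BBP female and male pools. Of the 38 members tested, 11 were below that percentile in every pool, among them Psmb2, Psmb3, Psmb4, Psmb6, Psmb9 and Psmd14. Others, such as Psma1 and Psmb8, were below it in both BBP pools and above it in both control pools. The part of background in the member signals and ratios was not tested. Among the members, the second-highest signals just inside the minimum were those of Psmb9 (160.9) and Psmb4 (208.7), and those outside it were 53.5 for Psmd9, 34.7 for Psma8 and 11.6 for Psmb11.

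**Figure D3:**
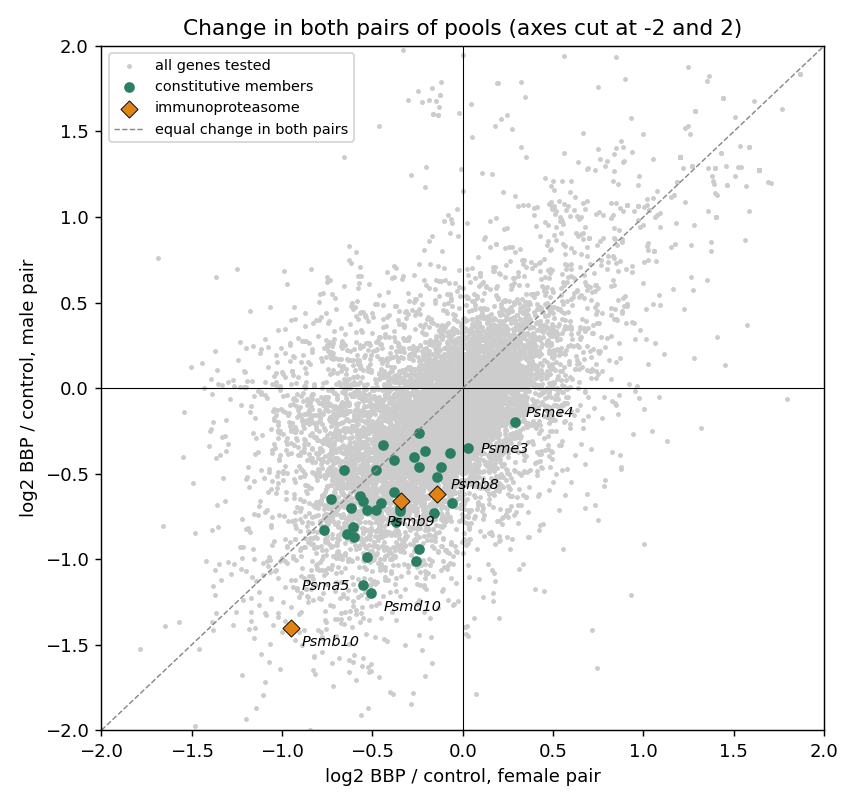
Each point is a gene, with the log2 ratio of BBP to control in the female pair on the horizontal axis and in the male pair on the vertical axis. All genes tested are grey, constitutive proteasome genes green and immunoproteasome genes orange, and both axes end at -2 and 2. Of the 38 members, 36 lie below 0 on both axes, with Psmb10 at -0.95 and -1.40.

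The larger ratios in males went with a higher control male pool. Of the 38 members, 34 had a higher signal in control males than in control females, against 53.4% of all genes, with a median log2 ratio of male to female of 0.27 where all genes had 0.02. In the BBP pools 24 members were higher in males, against 42% of all genes, with medians of 0.03 for members and -0.05 for all genes. The exceptions in the control pools were Psmb6, Psmd5, Psmd2 and Psmd11. Psma5 (0.94), Psmb4 (0.77) and Psma6 (0.58) had the largest log2 ratios of control male to control female. In 34 members the log2 ratio of BBP to control was lower in the male pair than in the female pair, against 59.6% of all genes and 67.5% of protein-coding genes. These counts use the same 4 signals of each gene as the exposure ratios and are not separate evidence, and with 1 pool per sex and exposure the difference between the sexes was not tested.

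**Figure D4:**
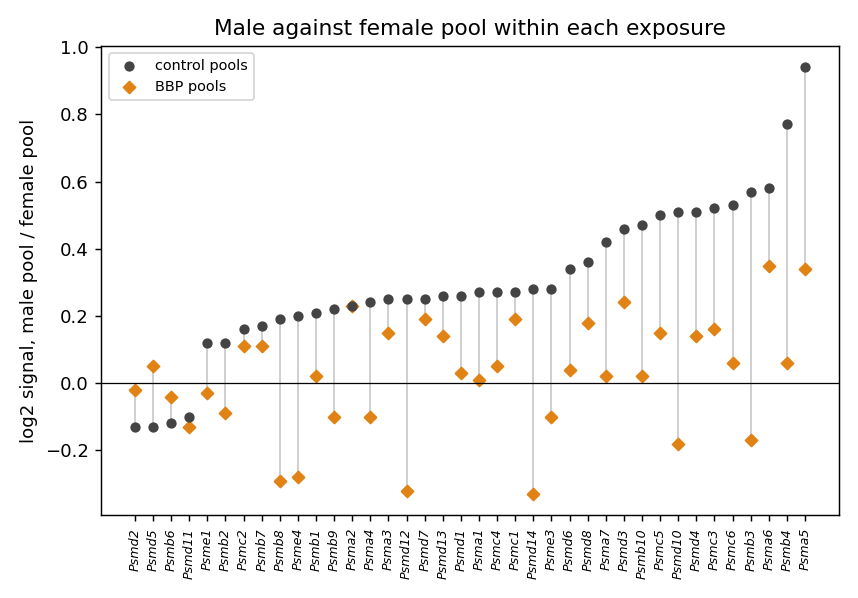
The log2 ratio of male to female signal is plotted for the 38 proteasome genes in the control pools (circles) and the BBP pools (diamonds), joined by a line for each gene. The control circles centre on 0.27 and the BBP diamonds on 0.03.

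The control male pool therefore carries weight in every male ratio. With a pool left out, exposure was the only term. The exposure that lost the pool then had a single sex, so these values mix sex with exposure. Without the control male pool, the median limma log2 change of the members was -0.36. It was -0.71 when the control female pool was omitted, beside -0.55 with all arrays. The corresponding values were -0.53 without the BBP female pool and -0.59 without the BBP male pool. For all genes the same medians, in the order of these omissions, were -0.12, -0.14, -0.14 and -0.10, beside -0.13 with all arrays.

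Genes that work with the proteasome were examined by lists, none of which had a member that passed limma in either direction. Of the assembly chaperones of the core, 3 of 6 were measured, with medians of -0.38 (females) and -0.85 (males). Pomp, which assembles the beta ring and is needed for both kinds of proteasome, had 1159 in control females, 690.3 in BBP females, 1433 in control males and 892 in BBP males. Both of its BBP pools lay below both control pools, as in 39.8% of all genes (log2 ratios -0.75 and -0.68, limma SE 0.12, adjusted p = 0.061). Psmg1, a chaperone of the alpha ring, gave -0.38 and -0.86 (adjusted p = 0.1 by limma).

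Proteasome cofactors, 7 of 8 measured, had medians of -0.30 and -0.38. Txnl1, a thioredoxin-like protein bound to the cap, had 1339 in control females, 946 in BBP females, 2193 in control males and 1105 in BBP males. Like Psma5 it was highest in the control male pool, with ratios of -0.50 and -0.99 (adjusted p = 0.0856 by limma). Sem1, a small lid protein, gave -0.81 and -0.38 (adjusted p = 0.101 by limma).

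In the list of ubiquitin and its conjugating enzymes 6 of 12 genes were measured, with medians of -0.52 and -0.33. Cdc34 and Ube2n, both ubiquitin-conjugating enzymes, had the largest mean ratios, at -0.58 and -0.80 for Cdc34 (adjusted p = 0.071 by limma) and -0.49 and -0.54 for Ube2n (adjusted p = 0.1). Factors that deliver substrates to the proteasome, 9 of 10 measured, had medians of -0.23 and -0.28, with Ubqln1 at -0.30 and -0.39 and the segregase Vcp at -0.38 and -0.28.

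NFE2L1 is the transcription factor known to raise proteasome subunit genes when proteasome activity is short. Of its axis 4 of 7 genes were measured, with medians of -0.06 and -0.19, near those of all genes. Nfe2l1 itself had 737 in control females, 648 in BBP females, 630.1 in control males and 597 in BBP males. Each BBP pool was only slightly below the control pool of its sex (-0.19 and -0.08, adjusted p = 0.516 by limma). The BBP female pool lay above the control male pool. Nfe2l2, which encodes NRF2, had ratios of -0.12 and -0.67 (adjusted p = 0.218), and the partner gene Mafk had 0.15 and 0.19.

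Peptides from the proteasome are loaded on MHC class I molecules. Of this loading list 11 of 12 genes were measured, with medians of -0.18 and -0.17, also near those of all genes. The peptide transporter genes stood at 0.06 and -0.17 for Tap1 and at 0.15 and -0.03 for Tap2, and the heavy chain gene H2-K1 at 0.03 and -0.06. The largest mean ratios were those of Calr and Pdia3, chaperones of the endoplasmic reticulum. Calr had -0.93 in females and -0.53 in males (adjusted p = 0.0868 by limma), and Pdia3 had -0.80 and -0.49 (adjusted p = 0.0933).

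**Figure D5:**
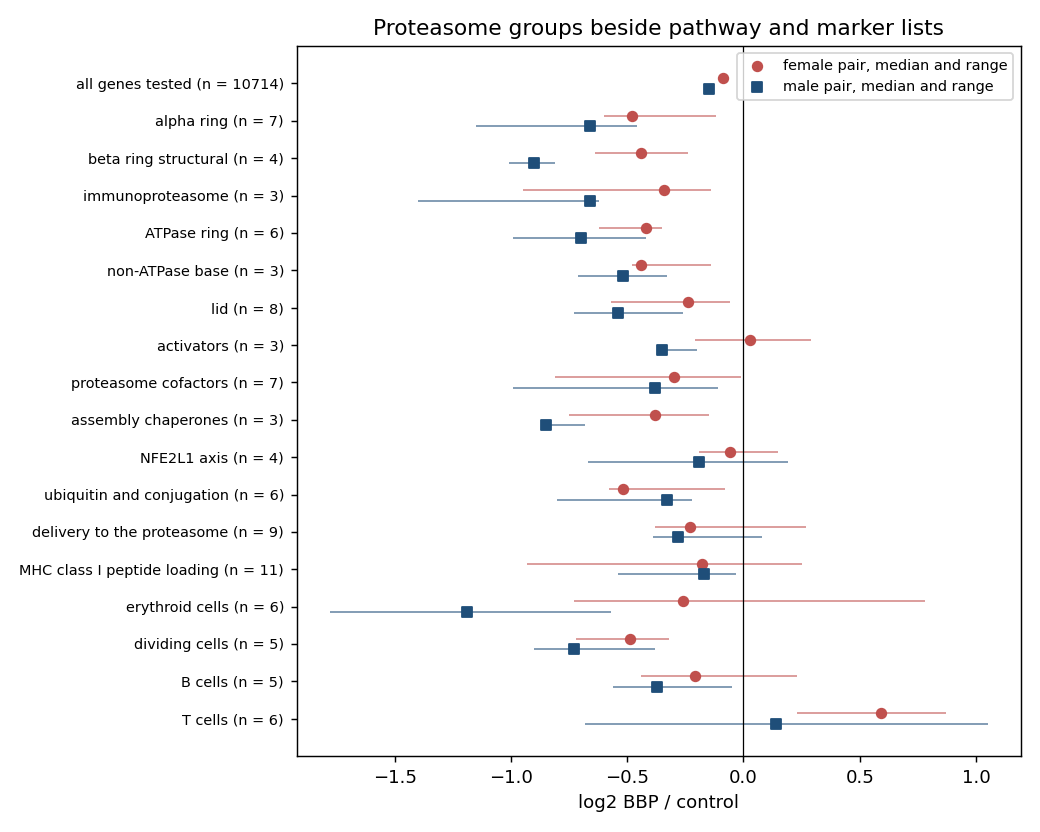
For each role group of at least 3 proteasome genes, each pathway list and 4 marker lists, the median (symbol) and the range (line) of the log2 ratio of BBP to control are plotted for the female pair and the male pair; all genes are shown by their medians alone. The structural beta subunits (-0.90), the assembly chaperones (-0.85) and the erythroid markers (-1.19) have the lowest male medians, and the MHC class I loading list lies near all genes.

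Markers of spleen cells differed between the pools as well, and none of those measured was listed at 0. Erythroid markers, 6 of 8 measured, had median log2 ratios of -0.26 in females and -1.19 in males. In the female pair Alas2 (0.78) and Slc4a1 (0.18) were higher in the BBP pool, while Rhag, Epor, Ermap and Tfrc were lower. The summed signals were 49830 in control females, 59335 in BBP females, 104880 in control males and 57355 in BBP males. The control male pool was the highest for these genes, as it was for most proteasome genes. Markers of dividing cells, 5 of 6 above the minimum, had medians of -0.49 and -0.73, and the summed signals of all 6 were 66847 and 68137 in the control female and male pools against 51235 and 49470 in the BBP female and male pools.

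B cell markers, 5 of 6 measured, had medians of -0.21 and -0.37, with summed signals of 203471 to 203505 in the control pools and 157764 to 163777 in the BBP pools. T cell markers, 6 of 6 measured, had 0.59 and 0.14, with summed signals of 32454 to 51070 in the control pools and 45474 to 83419 in the BBP pools. The part of these cell types in the proteasome ratios was not tested, and in a bulk sample fewer cells of a type and less RNA per cell cannot be told apart. Markers of organs that a spleen preparation should lack were mostly low, with Alb of liver at 16.5 to 21.7, Foxn1 of thymic epithelium at 11.3 to 14.5 and Prss1 of pancreas at 21.9 to 42.8, while Cela1 gave 122 to 194.

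The interferon-inducible immunoproteasome genes were set beside an interferon response list, of which 4 of 7 genes passed the minimum, with medians of -0.78 and -0.27. Cxcl9, a chemokine induced by interferon gamma, had 287 in control females, 118 in BBP females, 267 in control males and 126 in BBP males. It fell in BBP pools, with ratios of -1.28 and -1.08 (adjusted p = 0.0386 by limma). Irf1, the transcription factor that drives immunoproteasome genes after interferon, had -0.20 and -0.07 (adjusted p = 0.526 by limma).

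Promoter sequences were examined because many members were lower together. RefSeq windows on GRCm38.p6, from 250 bases before to 50 after the start, were at hand for 32 of the 38 members tested, and Psma6 and Psmc2 had more than 1 window. The core of the antioxidant response element that NFE2L1 binds, TGACNNNGC, was searched on both strands. It occurred in 4 of the 34 windows of these 32 members, which is 11.8%, and in 12.4% of all 32851 windows of the same length. The 4 genes were Psmb6, Psmc6, Psmd12 and Psme4. Their median ratios were -0.34 in females and -0.69 in males, and those of the 28 members with a window and no match were -0.38 and -0.66. The window of Psmd9, which was below the signal minimum, also held a match. The share was thus near that of all promoters.

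The windows of Psmc6, Psmb6 and Psmd12, the matched members with the largest mean ratios, are shown 5′ to 3′ on the plus strand, with the match in capitals, which reads on the minus strand in Psmc6 and Psmd12 and on the plus strand in Psmb6. They lie at chr14:45329574-45329873 for Psmc6, chr11:70525107-70525406 for Psmb6 and chr11:107479278-107479577 for Psmd12. The matches begin at -227, -9 and -247 relative to the start. In the Psmb6 window the match is next to the start of transcription, and in the other windows it lies at the far end.
Psmc6: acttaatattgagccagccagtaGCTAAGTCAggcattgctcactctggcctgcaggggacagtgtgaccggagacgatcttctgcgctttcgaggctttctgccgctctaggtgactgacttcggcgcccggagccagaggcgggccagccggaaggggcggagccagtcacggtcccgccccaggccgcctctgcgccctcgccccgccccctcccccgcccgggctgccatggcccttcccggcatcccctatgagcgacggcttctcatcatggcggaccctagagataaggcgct
Psmb6: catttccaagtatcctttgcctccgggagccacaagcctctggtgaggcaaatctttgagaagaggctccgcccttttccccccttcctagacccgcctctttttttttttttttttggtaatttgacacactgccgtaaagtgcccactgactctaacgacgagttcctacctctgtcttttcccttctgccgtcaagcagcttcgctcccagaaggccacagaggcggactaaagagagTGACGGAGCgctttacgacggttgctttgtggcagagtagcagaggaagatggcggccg
Psmd12: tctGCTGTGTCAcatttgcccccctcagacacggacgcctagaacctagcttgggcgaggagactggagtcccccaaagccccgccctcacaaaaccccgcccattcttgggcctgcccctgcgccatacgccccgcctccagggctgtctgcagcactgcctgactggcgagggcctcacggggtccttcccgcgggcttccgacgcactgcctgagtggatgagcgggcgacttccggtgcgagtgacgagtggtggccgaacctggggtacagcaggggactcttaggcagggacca

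Interferon and general promoter elements were searched in the same windows, again on both strands. The interferon-stimulated response element, taken as TTTC, any pair of bases and TTTC again, was found in Psmb3, Psmd4 and Psme1, which is 8.82% of the member windows against 3.44% of all. The gamma-activated sequence TTCNNNGAA was found in Psmb8 and Psmd2, 5.88% against 8.3%. The CCAAT box was found in 13 members, 38.2% against 37.4%. None of the 3 immunoproteasome windows held TGACNNNGC or the interferon-stimulated response element. A match of this kind is a description of the letters in the window and not a site of binding.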

How the data were processed

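Splenocyte RNA of 26 offspring was pooled by sex and exposure into 4 samples, 1 Clariom D array each. The authors extracted the fluorescence with MAS 5.0 and scaled the arrays against each other, and deposited signal intensity values on a linear scale, 1 per probe set. The sources used here do not give the target of this scaling, and a different scaling shifts every ratio of an array alike. The number of arrays limits the precision.

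Of 72688 features 6732 controls were left out. Of 65956 transcript clusters 31290 carried 1 symbol, 1524 several and 33142 none. Symbols came from the platform's annotation, updated through RefSeq synonyms of GRCm38.p6 (30731 of 30734 found). Each symbol was represented by its brightest cluster on average, and genes had to reach a signal of 100 in 2 or more arrays. Without a pseudocount, log2 signals were fitted in limma 3.58.1 (R 4.3.3) with exposure and sex as terms and a trend in the prior variance, leaving 1 residual degree of freedom, and p-values were adjusted over 10714 genes. The fit was tested on simulated data. Pairs of pools of the same sex have no test. Tables and figures were made in Python 3.11.15 with pandas 2.3.3 and matplotlib 3.10.9.

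Members, gene lists and tests were chosen with earlier results of these data known. Every member could be named, with all 4 signals given for catalytic and immunoproteasome subunits, for members called by limma, for the members with the largest and smallest mean ratios and for those whose pairs differed in sign, and signals of some other genes were added after their values were seen. Of each pathway list, genes past limma or else the pair with the largest mean ratio were named, and other genes named from the lists were chosen after their values were seen. Lists covered cofactors, assembly chaperones, the NFE2L1 axis, ubiquitin, delivery, MHC class I loading and cell markers. Alternatives changed the scaling, pseudocount, signal minimum, cluster choice, sex term, variance prior, genes tested and arrays. The cytokine, antibody and RT-PCR data were not used here.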

Additional observations from a re-analysis of the deposited data

Results flagged for a closer look

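For 2 activator genes the pairs of pools pointed in opposite directions. The log2 ratio of BBP to control of Psme4, which encodes the PA200 activator, was 0.29 for females and -0.20 for males, a difference of 0.49. For Psme3, which encodes PA28 gamma, the ratios were 0.03 and -0.35, a difference of 0.38. With 1 pool per sex and exposure the difference between the sexes was not tested for either gene.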

How the results depend on the processing

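The count of members called lower by limma was 1 and depended on the settings. It was 0 with quantile normalization, with no signal minimum, with a minimum of 200 and without the sex term. In each of these settings 0 genes in all were lower. It was also 0 with a pseudocount of 50, where 34 genes in all were lower, and without the trend, where 94 were. It was 6 (Psma1, Psmb10, Psmb2, Psmb6, Psmb7 and Psmc1) with the median over all clusters with 1 symbol equalised, where 486 genes in all were lower. It stayed at 1 with robust prior variances (141 in all) and with the mean of all clusters of a symbol (114 in all). Of 3 settings chosen after seeing the data, equalising the median over the genes tested gave 0, where 30 genes in all were lower. Counting genes with identical signals once also gave 0, where 0 genes in all were lower. Testing protein-coding genes alone, the third, gave 21, where 766 of all 7671 were lower. Over these settings the calls among all genes ranged from 0 to 766 lower and from 0 to 204 higher, beside 126 and 153. The scaling shifts all genes: their medians were -0.09 and -0.15 as deposited, -0.16 and -0.23 with the first median scaling and 0.02 and 0.02 with the second.

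Members at least 1.5-fold lower in both pairs numbered 7, beside 12 and 2 with these median scalings in turn and 4 with the pseudocount, and members at least 2-fold lower in both pairs numbered 1 with the first median scaling in place of 0. The immunoproteasome median of the male pair was -1.01 with a minimum of 200, which leaves out Psmb9. The limma ratio of Psme4 changed sign to -0.03 with the first median scaling, to -0.05 without the control female pool and to -0.09 without the BBP female pool, and was 0.19 without the BBP male pool. The median limma ratio of the members stayed below 0 in every setting. The cause of the changed counts was not tested. The labels give no replicate numbers, and the sex term is what pairs the pools. With 4 arrays, differences the size of those of Psmd11 or Psme1 could not be told from the spread, nor could the larger one of Psmd12 (limma -0.45). That spread is between pools, with 1 residual degree of freedom, and not between animals.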

Other observations

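Other marker lists, with fewer genes above the minimum, had mixed ratios. The median log2 ratios in the female and male pairs were -0.45 and -0.41 for 3 natural killer cell markers, 0.27 and -0.29 for 4 markers of red pulp macrophages, -0.28 and -0.05 for 6 neutrophil markers, -0.25 and -0.51 for 3 plasma cell markers and 0.22 and 0.43 for 2 dendritic cell markers. None of these genes passed limma.

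The pseudogene copy Psmb5-ps had signals of 102.4 in control females, 75.3 in BBP females, 140.6 in control males and 90.5 in BBP males, close to the signal minimum. Psma5-ps had 281, 158, 533 and 226 in the same order. Psmb6-ps was below the minimum in all pools, at 15.2 to 25.3.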
